A study of Mus musculus with 4 samples.

Results

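The actins, the alpha-actinins and the tropomodulins build and hold together the actin filaments of the lens, and they were followed here probe by probe in lenses with a conditional knockout of the RNA-binding protein CELF1 and in Control lenses. The genes were Actb, Actg1, Acta2, Actn1, Actn2, Actn3, Actn4, Tmod1 and Tmod3, and every array probe that carried 1 of these 9 symbols was taken on its own. The arrays held 21 such probes, for 8 of the 9 symbols, among the 45263 probes used in all, which cover 20830 genes by RefSeq name. Actg1, which encodes cytoplasmic gamma-actin, is not analysed here because 0 probes carried its symbol. Actb and Actn2 were selected on their signal being low in Celf1 cKO lenses on these same arrays, so their differences between the genotypes are given as a description and without a p-value, whereas the other 6 genes take the p-value of a fit across all probes. The set as a whole was put together with earlier results of these arrays known, which also bears on those p-values.

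Lenses were taken at postnatal day 6, and the RNA of 1 lens was hybridised to each of 4 arrays of the Illumina MouseWG-6 v2.0 BeadChip type, whose 50-base probes report a fluorescence intensity. The Celf1 cKO group (n = 2, cKO A and cKO B) carried a Celf1 lacZ knock-in allele, a conditional allele with exon 5 flanked by loxP sites, and the Pax6GFPCre transgene, which is active from the lens placode on and acts mainly in the lens and pancreatic lineages. The Control group (n = 2, Control A and Control B) carried that lacZ knock-in allele and a wild-type allele, so that all 4 lenses lacked 1 working copy of Celf1 from the germline on. The genetic background was mixed (C57BL/6 and FVB). Each array is 1 lens, and litters are not given in the sources used here. The cross described for the cKO mice had a parent homozygous for the conditional allele, which every pup of that cross inherits. Control mice with a wild-type allele would not come from that cross, so genotype and cross cannot be told apart.

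Actin monomers polymerise into filaments that have a fast-growing barbed end and a slow-growing pointed end. In the lens, filaments lie under the membranes of the elongated fiber cells together with spectrin and tropomyosin, and tropomodulins cap their pointed ends. Alpha-actinins are rod-shaped dimers that cross-link filaments. ACTN1 and ACTN4 are found in most cells, while ACTN2 and ACTN3 are best known from the Z-discs of striated muscle. ACTB is the cytoplasmic beta-actin of nearly all cells, and ACTA2 is the actin of smooth muscle, which lens epithelial cells can also make when they turn into myofibroblast-like cells.

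Values are log2 signal after background correction and quantile normalization, unless an unnormalized intensity is named. A fold change is cKO minus Control on that scale, with its standard error (SE, n = 2 in each group). Of the 21 probes, 19 were detected above background on at least 2 arrays and were tested, 17 of them on all 4 arrays. The remaining pair, Acta2 probe ILMN_1237242 and Actn3 probe ILMN_2708303, were detected on no array. The level of a probe depends on its sequence, so levels are compared between arrays. Where a probe is called the brightest of its list, this states its signal on the array and not the abundance of its transcript against others.

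The probes matter for reading Actb, because its 5 probes do not report the same difference. ILMN_2588055 and ILMN_2846865 are nearly the same oligonucleotide, sharing 49 of their 50 bases, and are shown with the shared bases of a 30-base stretch in capitals. The other 3 Actb probes lie elsewhere along the transcript and have no such overlap, and a 30-base stretch of each is shown in lower case. All are written 5′ to 3′ as in the files.
Actb ILMN_2588055: cGGTGAAGGCGACAGCAGTTGGTTGGAGCA
Actb ILMN_2846865: GGTGAAGGCGACAGCAGTTGGTTGGAGCAA
Actb ILMN_2617433: tccacccgcgagcacagcttctttgcagct
Actb ILMN_2698799: ccggcccctccatcgtgcaccgcaagtgct
Actb ILMN_1377923: tcgcgtccatgccctgagtccaccccgggg

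The files place the start of the 5 Actb probes at transcript positions 14 (ILMN_2617433), 1173 (ILMN_2698799), 1408 (ILMN_2588055), 1412 (ILMN_2846865) and 1610 (ILMN_1377923). Genome positions are given for ILMN_2617433 (chr5:143171801-143171850, minus strand) and ILMN_2846865 (chr5:143168683-143168732, minus strand), in a build that the files do not name. The files name no exon for these probes.

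Actb was lower in both cKO lenses than in both Control lenses on all 5 probes. In whole-lens RNA, fewer cells of a type and less RNA per cell cannot be told apart. The overlapping pair showed the larger difference. Probe ILMN_2846865 read 8.42 in cKO A and 7.92 in cKO B, against 10.46 in Control A and 10.65 in Control B. In unnormalized intensity these were 452.5 and 351.8 in cKO lenses and 1152 and 1074.6 in Control lenses. The fold change was -2.38 ± 0.21, or 5.21-fold lower. Probe ILMN_2588055 read 8.34 and 7.72 in cKO A and cKO B and 10.24 and 10.71 in Control A and Control B, with a fold change of -2.44 ± 0.25. As these probes share nearly all their bases, they count as 1 measurement of the transcript and not as a pair of independent readings.

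The other 3 Actb probes were also lower in cKO lenses, by less. ILMN_2617433, near the start of the transcript, read 10.73 in cKO A and 10.47 in cKO B, against 11.76 in Control A and 11.82 in Control B, a fold change of -1.20 ± 0.17. ILMN_1377923 read 12.67 and 11.90 in cKO lenses and 13.12 and 13.32 in Control lenses, a fold change of -0.94 ± 0.26. ILMN_2698799 read 12.64 and 12.26 in cKO lenses and 13.22 and 13.16 in Control lenses, a fold change of -0.75 ± 0.18, or 1.68-fold lower. On each of the 5 probes cKO B was the lowest array. The unnormalized intensity of ILMN_2698799 was 7626.3 in cKO A and 6323.5 in cKO B, against 8717 in Control A and 6810.8 in Control B, so that before scaling cKO A lay between the Control arrays on this probe.

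The size of the Actb difference therefore depended on the probe. Within an array, the mean of the overlapping pair minus the mean of the other 3 probes was -3.63 in cKO A and -3.72 in cKO B, against -2.36 in Control A and -2.09 in Control B. The difference between the genotypes was -1.45 on the log2 scale, and both cKO arrays lay below both Control arrays. The unnormalized intensities gave -1.22 and the deposited normalized table -1.33. A factor common to an array cancels in such a difference, but background signal and steps that depend on brightness do not. The cause of the difference between the probes was not tested. The average over the 5 probes gave -1.54 ± 0.20, or 2.91-fold lower.

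Actn2 showed the widest gap of the 8 genes. Its 2 probes lie at transcript positions 2779 (ILMN_2797061, chr13:12361849-12361898, minus strand, build not named in the files) and 2842 (ILMN_2764727), and a 30-base stretch of each is shown because they overlap by no long run and give separate readings of the transcript.
Actn2 ILMN_2797061: gcttcgtcgagagctgcctccggatcaggc
Actn2 ILMN_2764727: cggggaaagcgacctctaatgctctttctg

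Probe ILMN_2764727 read 6.70 in cKO A and 5.11 in cKO B, against 10.01 in Control A and 9.43 in Control B. Its unnormalized intensity was 153.9 and 70.2 in cKO lenses and 854.7 and 452.3 in Control lenses. The fold change was -3.81 ± 0.47, or 14.0-fold lower. Probe ILMN_2797061 read 6.24 in cKO A and 4.79 in cKO B, against 9.38 in Control A and 8.99 in Control B, with a fold change of -3.67 ± 0.42, or 12.7-fold lower. Both probes remained above background on all 4 arrays, with the weakest detection in cKO B (detection p-values of 0.0011 and 0.0096 for ILMN_2764727 and ILMN_2797061). The cKO lenses differed from each other as well: cKO B was lower than cKO A by 1.59 on ILMN_2764727 and by 1.45 on ILMN_2797061, where the 99th percentile of this distance over all 16262 tested probes was 0.88. Each cKO value still lay below both Control values. Leaving out a lens gave fold changes from -4.55 (without cKO A) to -2.996 (without cKO B) for ILMN_2764727 and from -4.31 (without cKO A) to -2.92 (without cKO B) for ILMN_2797061.

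On the 7 probes of the picked genes, the cKO and Control values did not overlap on any. Non-overlap in either direction held for 61.1% of all tested probes and, lower in cKO, for 28.7%, and as these genes were chosen for this difference nothing is read from the count.

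**Figure D1:**
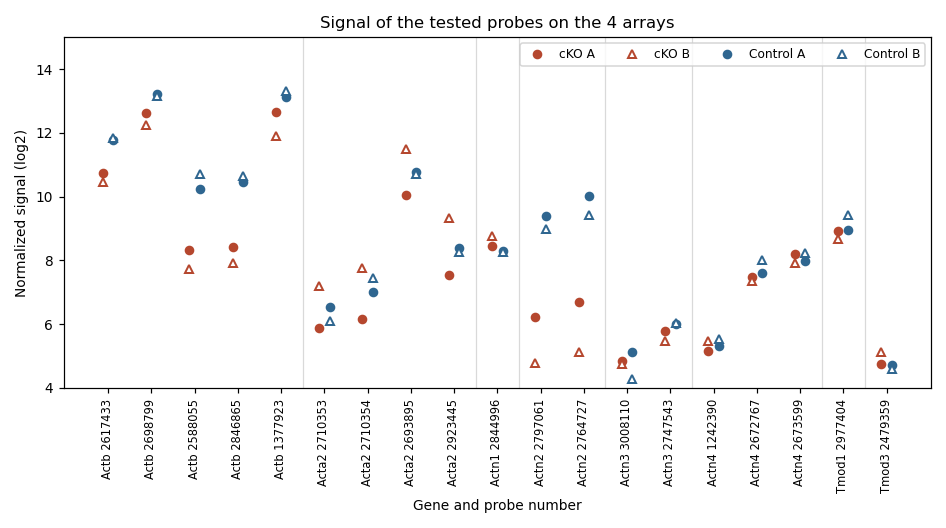
Normalized log2 signal (vertical axis) of the 19 tested probes, by gene and probe number, in cKO A and cKO B (red) and Control A and Control B (blue), 1 point for each array. The red points lie below the blue points on all 5 Actb probes and both Actn2 probes, and on the Acta2 probes cKO B is the highest array and cKO A the lowest.

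ACTN2 is known from muscle, so markers of muscle were examined beside it. Of the 20 skeletal muscle markers, 6 had a tested probe and 0 of their 7 probes were called, where 11.3% of all tested probes were called. Acta1, Actc1, Ckm, Myh1, Myh2, Myh3, Myh4, Myl1 and Tnnt3, which encode actins, creatine kinase, myosin chains and a troponin of striated muscle, were detected on no array of either genotype. Other markers of the list were detected at low intensity: Des on 4 arrays, Mylpf, Tnnt1, Mb and Pvalb on 3 and Myh8 on 2. The summed linear signal of the tested probes was 191.4 in cKO A and 190.7 in cKO B, and 189.5 in Control A and 209.3 in Control B. Each probe's part of this sum includes the offset of 16 added in background correction, which makes up much of it for dim probes. Similar sums therefore do not show equal muscle RNA. The remaining 14 markers had no tested probe, and the part of muscle cells in the Actn2 signal was not tested. Of the lens markers, Crygd, a gamma-crystallin of fiber cells, was the brightest fiber marker and read 15.19 to 15.27 on the 4 arrays. The probe of Gja3, another fiber marker, and the brightest probe of Pax6, an epithelium marker, were detected on no array.

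Across the 6 genes that were not picked, 12 probes were tested and 0 were called, where 11.3% of all tested probes were called (limma adjusted p under 0.05, log2 fold change beyond 0.58, mean log2 signal over 4.6). At an unadjusted p under 0.05 there were also 0 of the 12, against 30.6% of all tested probes. Their fold changes ran from -0.39 to 0.33 with a median of -0.0014, where the median of all tested probes was 0.015. There were 6 probes lower and 6 higher in cKO lenses, and 5 had groups that did not overlap, against 61.1% of all tested probes. With 2 lenses in each group a missed threshold does not show equal levels, and the 95% intervals of the 12 fold changes reached down to -1.34 and up to 1.25, both on Acta2 probes.

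Among the actins, Acta2 differed more between the cKO lenses than between the genotypes. Probe ILMN_2693895 (chr19:34316066-34316115, minus strand) read 10.05 in cKO A and 11.49 in cKO B, against 10.77 in Control A and 10.70 in Control B. Probe ILMN_2923445 read 7.54 and 9.32 in cKO lenses and 8.37 and 8.26 in Control lenses, and ILMN_2710353 read 5.89 and 7.20 against 6.55 and 6.09. On all 4 tested probes cKO A was the lowest array and cKO B the highest, with the Control lenses in between. In unnormalized intensity ILMN_2693895 read 1347.8 in cKO A, 3821.5 in cKO B, 1454.5 in Control A and 1104.9 in Control B. Here cKO B again stood highest, while cKO A lay between the Control arrays.

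The distance of cKO B above cKO A was 1.31 to 1.78 on the log2 scale over the 4 Acta2 probes, from 2.47-fold to 3.42-fold. Over all tested probes the median distance between these arrays was 0.15 and the 99th percentile 0.88. ILMN_2710353 and ILMN_2710354 share 49 of 50 bases, so the 4 probes make 3 separate readings. The fold changes between the genotypes were 0.04 ± 0.40 for ILMN_2693895 (limma adjusted p = 0.959, 95% interval -0.91 to 0.98), 0.11 ± 0.49 for ILMN_2923445 (adjusted p = 0.897), 0.22 ± 0.39 for ILMN_2710353 (adjusted p = 0.734) and -0.26 ± 0.46 for ILMN_2710354 (adjusted p = 0.739). A single lens decided the sign: without cKO A the fold changes were 0.54 to 1.002 and ILMN_2923445 was called (adjusted p = 0.030), where 6.92% of all probes in that fit were called, and without cKO B they were -0.41 to -1.04 and 0 were called. In both fits the cKO group is 1 lens, which is assumed to vary as the Control lenses do.

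Markers of smooth muscle and pericytes, cells in which Acta2 is strongly expressed, were counted beside it. Of the 12 markers, 7 had a tested probe and 0 of their 8 probes were called, where 11.3% of all tested probes were called. Their summed linear signal was 354.4 in cKO A and 313.7 in cKO B, and 369.7 in Control A and 342.5 in Control B. These sums include the same offset of 16 for each probe. Myh11, Tagln and Lmod1, which encode proteins of the smooth muscle contractile apparatus, were detected on no array, and Cnn1 and Pdgfrb on 1. Smtn, Rgs5, Notch3, Abcc9 and Des were detected on 4 arrays and Cspg4 and Kcnj8 on 3, and the brightest Smtn probe read an unnormalized 94.8 and 95.9 in cKO lenses and 58.8 and 55.6 in Control lenses (log2 fold change 0.65, limma adjusted p = 0.056). The part of these cells in the Acta2 signal was not tested.

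The alpha-actinins other than Actn2 did not pass the test. Actn1, a cross-linker of stress fibers and adhesions, read 8.44 and 8.77 in cKO lenses and 8.30 and 8.26 in Control lenses on its 1 probe (ILMN_2844996), so both cKO lenses were higher, with a fold change of 0.33 ± 0.17 (limma adjusted p = 0.247, 95% interval -0.08 to 0.73). Actn4, the closest relative of Actn1, had 3 probes. ILMN_2672767 read 7.48 and 7.36 in cKO lenses and 7.602 and 8.01 in Control lenses, a fold change of -0.39 ± 0.19 (adjusted p = 0.204). ILMN_2673599 (-0.04 ± 0.18, adjusted p = 0.899) and ILMN_1242390 (-0.11 ± 0.18, adjusted p = 0.719) had groups that overlapped.

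Actn3, the fast-fiber alpha-actinin of muscle, was dim. Its probe ILMN_2747543 read 5.77 and 5.47 in cKO lenses and 6.00 and 6.02 in Control lenses, a fold change of -0.39 ± 0.17 (limma adjusted p = 0.169, 95% interval -0.79 to 0.01), the lowest adjusted p of the 12 probes. ILMN_3008110 was detected on 3 arrays, read 4.83 and 4.74 in cKO lenses and 5.14 and 4.29 in Control lenses, and had a fold change of 0.07 ± 0.27 (adjusted p = 0.885), which was 0.92 ± 1.10 (adjusted p = 0.620) with the deposited normalized table. Paralogous alpha-actinins are alike in sequence, and the probe pair most alike between Actn3 and Actn4 is shown over a 30-base stretch with the identical bases, 24 of 30, in capitals.
Actn4 ILMN_2673599: ACAGACACaGCTGAtCAgGTcaTcGCCTCC
Actn3 ILMN_2747543: ACAGACACgGCTGAaCAaGTggTaGCCTCC

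The longest run of identical bases between probes of different genes in the set was 10, over the 210 probe pairs compared. Whether the dim Actn3 signal contains RNA of Actn4 bound to this probe was not tested.

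The tropomodulins did not pass the test either. Tmod1, the tropomodulin of lens fiber cells and red blood cells, read 8.92 and 8.66 in cKO lenses and 8.95 and 9.42 in Control lenses (ILMN_2977404, chr4:46135549-46135598, plus strand). Both cKO lenses lay below both Control lenses, cKO A by a small margin, and the fold change was -0.39 ± 0.21 (limma adjusted p = 0.241, 95% interval -0.87 to 0.09). Blood markers, of which 3 genes were tested and 1 of 11 probes was called (Slc4a1, lower), had a summed linear signal of 3162 in cKO A and 1414 in cKO B, against 2391 in Control A and 1932 in Control B, and Alas2 was detected on no array. The part of blood in the Tmod1 signal was not tested. Tmod3, the tropomodulin found in most cells, was near background and was detected on 3 arrays, with 4.74 and 5.12 in cKO lenses and 4.73 and 4.604 in Control lenses, a fold change of 0.27 ± 0.18 (adjusted p = 0.366).

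**Figure D2:**
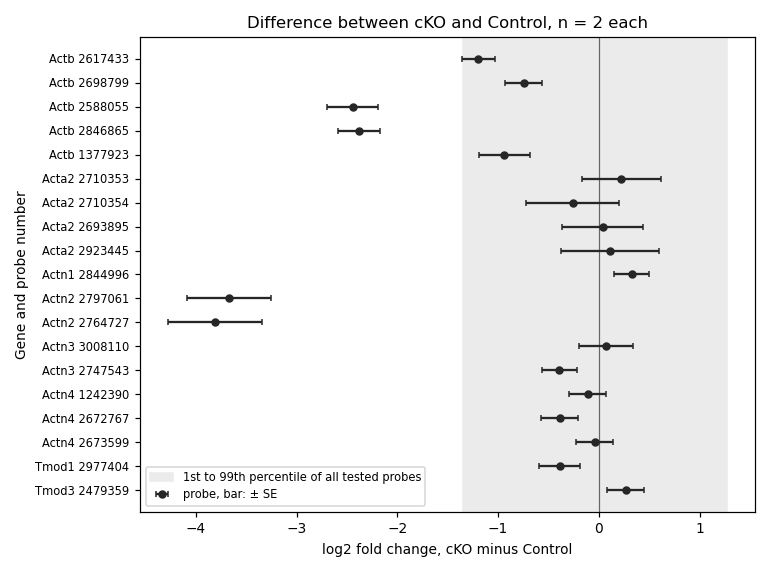
Fold change on the log2 scale (horizontal axis, cKO minus Control, n = 2 in each group) of the 19 tested probes, with bars of ± SE and, in grey, the range from the 1st to the 99th percentile of all 16262 tested probes (-1.35 to 1.27). The overlapping Actb pair and both Actn2 probes lie below the grey range, and the 12 probes of the other 6 genes lie within it, between -0.39 and 0.33.

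The arrays of the genotypes differed in brightness and in transcripts of the sex chromosomes. For the unnormalized intensity, the 99th percentile reached 3209 and 3444 with cKO lenses against 2158 and 1699 with Control lenses, and 14180 to 16925 probes were detected, with the higher numbers on the cKO arrays. Celf1, the targeted gene, was called lower on 4 of its 4 tested probes (log2 fold changes of -1.31 to -1.80, limma adjusted p from 0.0081 to 0.0154), and 0 of the 4 were called without Control B. Over all probes, 1831 were called with the 4 lenses and 12 without Control B. Xist, with 4 probes, was detected on the cKO arrays and on no Control array, and the Y-linked Ddx3y was lower in both cKO lenses. Sex is not stated in the labels. In every comparison of cKO with Control lenses, genotype, cross, array brightness and sex-linked transcripts cannot be told apart.

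Because the arrays differed in brightness, the fold changes of single members moved with the scaling. With no normalization between arrays the median of all tested probes was 0.59, and with each array set to the same median it was 0.55. Without normalization the Actb fold changes were -0.15 to -1.61, and those of Actn2 were -3.07 and -2.98. Relative to the median of all probes under that setting, Actb lay at -0.74 to -2.20 and Actn2 at -3.65 and -3.57. Under the same setting Actn1 (1.18, adjusted p = 8.8e-04) and 3 Acta2 probes and 1 Actn4 probe were called higher, 5 of the 12, where 50.1% of all tested probes were called higher, and relative to the median the 12 probes of the 6 genes lay between -0.35 and 0.59, with 7 lower and 5 higher.

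**Figure D3:**
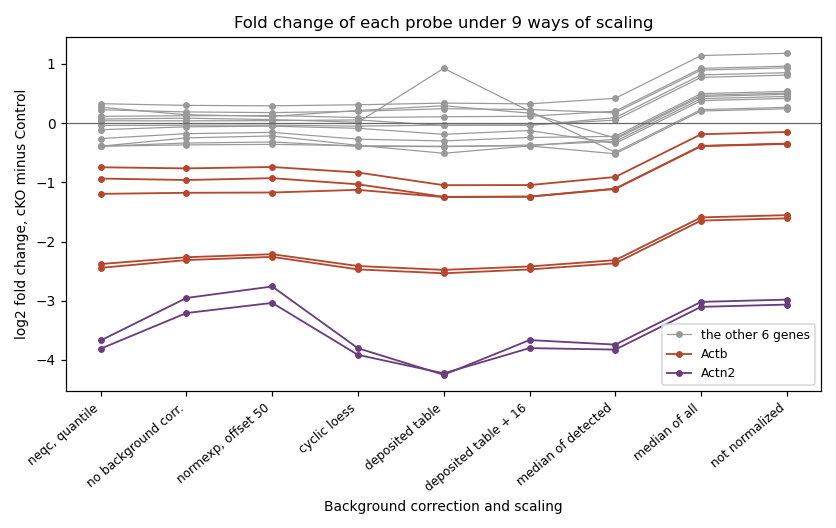
Fold change on the log2 scale (vertical axis, cKO minus Control) of each of the 19 tested probes under 9 ways of background correction and scaling (horizontal axis), joined by lines for Actb (red), Actn2 (purple) and the other 6 genes (grey). Both Actn2 probes stay between -4.25 and -2.76 and all Actb probes below 0, while without scaling and with equal medians all probes shift upward and the grey probes lie above 0.

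For the genes around the actins, 9 lists of 182 genes were counted, of which 129 genes with 222 probes were tested. There were 15 probes called higher and 13 called lower, 28 in all or 12.6%, beside 11.3% of all tested probes (5.86% higher and 5.4% lower). The median fold change of the 222 probes was 0.0017. The lists as a whole were thus close to the background of the arrays. Without Control B, 0 of the list probes were called, and without cKO B there were 8, so each call named from these lists holds for the 4 lenses together.

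Proteins that supply and turn over actin gave 3 probes called higher and 1 lower of 31, with a median of 0.08. Cfl2, a cofilin that severs filaments, was higher on 1 of its 2 probes (0.88 ± 0.18, limma adjusted p = 0.026), and Wdr1, which assists cofilin, rose on ILMN_2497268 (0.76 ± 0.19, adjusted p = 0.046). Coro2b, a coronin, fell on ILMN_2902228 (-1.21 ± 0.25, adjusted p = 0.027). Tmsb10, a thymosin that binds actin monomers and the brightest of the list, did not pass (-0.08 ± 0.17, adjusted p = 0.795). Of the Arp2/3 complex, which starts branched filaments, and of other nucleation factors, 41 probes of 24 genes were tested and 0 were called, with a median of -0.03.

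Relatives and cappers were also near the background. Of the other actins and actin-related proteins, Actr1a, the actin-like filament of dynactin, was the 1 called probe of 10 (-0.61 ± 0.15, limma adjusted p = 0.047). Among tropomodulins, leiomodins and barbed-end cappers, 1 probe was called higher and 2 lower of 24. Tmod4 exceeded background on ILMN_2488846 in cKO A and cKO B and on no Control array, which bounds the difference on this probe at least 1.68-fold higher in cKO (adjusted p = 0.020). Its other tested probe, ILMN_2519313, was not called (0.54). Scin, a severing and capping protein (-0.87 ± 0.22, adjusted p = 0.048), and 1 of the 5 probes of Add1, an adducin (-0.76 ± 0.19, adjusted p = 0.042), fell. Capzb, which caps the barbed end, was the brightest and did not pass (0.29 ± 0.15, adjusted p = 0.238).

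Cross-linkers other than the alpha-actinins gave 3 called probes of 26, all higher. Flnc, the filamin best known from muscle, read 6.23 in cKO A and 6.85 in cKO B on ILMN_2618364 and was not well above background in either Control lens, which sets its difference to at least 3.47-fold higher in cKO (limma adjusted p = 0.0031). Pls3, a plastin, rose by 0.93 ± 0.16 (adjusted p = 0.016) and Tagln2, a transgelin, by 0.89 ± 0.15 (adjusted p = 0.016). Of partners of alpha-actinin and the Z-disc, 17 of 33 genes were tested, and muscle proteins of the list such as Myoz1, Tcap, Ttn and Neb were not among them. Vcl, the adhesion protein vinculin (0.73 ± 0.17, adjusted p = 0.036), and both probes of Fhl1 (0.84 and 0.85) rose, and Csrp2 fell (-0.87 ± 0.17, adjusted p = 0.023). Pdlim1, a PDZ-LIM protein that binds alpha-actinin and the brightest of the list, did not pass (-0.26 ± 0.16, adjusted p = 0.312).

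In the membrane skeleton that tropomodulin caps, 2 probes were called higher and 6 lower of 34, with a median of -0.12. The called share was 23.5%, against 11.3% of all tested probes. Ank1, an ankyrin, was above background in Control lenses only and was at least 4.13-fold lower in the cKO group (limma adjusted p = 0.0015), while the probes of Sptbn1, from -1.45 to 1.78, and of Sptb, from -1.69 to 1.21, were called in both directions within 1 gene.

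Genes of the SRF pathway, in which actin monomers hold back the coactivator MRTF and which has Actb and Acta2 among its classical targets, gave 4 probes called higher and 2 lower of 22, with a median of 0.02. The called share of this list was 27.3%, against 11.3% of all tested probes. The immediate early genes Egr1 (2.34 ± 0.23, limma adjusted p = 0.0035) and Junb (1.41 ± 0.21, adjusted p = 0.012) rose. Mylk, the kinase of myosin light chains, fell on 2 of its 3 probes (-0.97 ± 0.19 on ILMN_1218347, adjusted p = 0.025). In the nonmuscle myosin II list, which shares Mylk, 1 probe was called higher and 2 lower of 17. Ppp1r12a, the targeting subunit of myosin phosphatase, was higher on 1 of 2 probes (1.07 ± 0.16, adjusted p = 0.012), and Myl6, a myosin light chain and the brightest, did not pass (0.49 ± 0.15, adjusted p = 0.082).

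**Figure D4:**
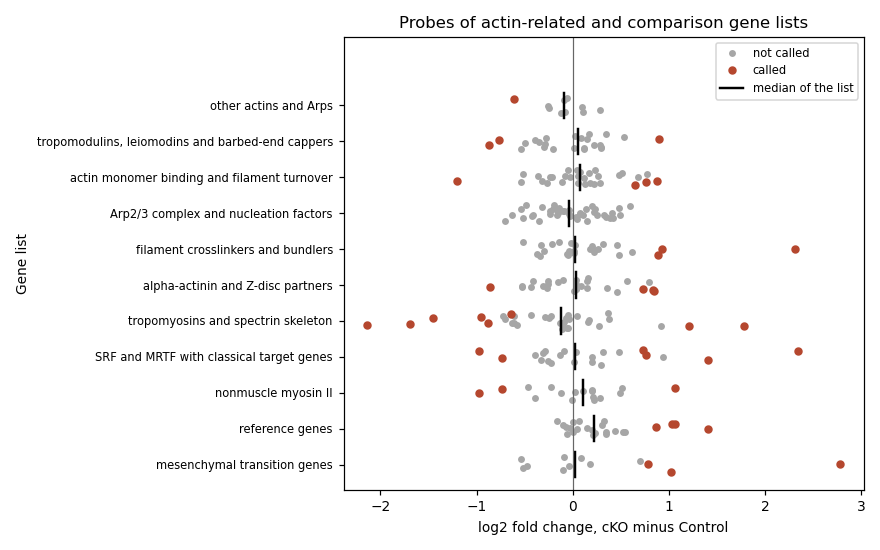
Fold change on the log2 scale (horizontal axis, cKO minus Control) of each tested probe in 9 lists of genes around actin and in the reference and mesenchymal gene lists (vertical axis), with called probes in red, others in grey and the median of each list as a black bar. The medians lie between -0.12 and 0.22, and called probes stand on both sides of 0 in 6 of the lists.

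The probes whose values over the 4 arrays were most like those of the brightest Actb probe and the brightest Actn2 probe were looked up, by the root mean square distance of log2 values centred on each probe's mean. Near Actb (ILMN_2698799) the 5 nearest genes were Igsf3, Gatad1, Isoc2a, Rnf10 and Rnf165, at distances of 0.019 to 0.027 and with fold changes of -0.71 to -0.78. Near Actn2 (ILMN_2764727) they were E330034G19Rik (0.38), Ddx3y (0.40), Rnf180 (0.42), Trex1 (0.51) and Dipk2a (0.61). The distance grows with the size of the fold change, so the distances around Actb and around Actn2 are not compared. Ddx3y, the Y-linked gene named above, read 6.86 and 4.83 in cKO lenses and 9.06 and 8.88 in Control lenses. Like Actn2 and the other probes listed near Actn2, Ddx3y was lower in cKO B than in cKO A. With 4 arrays such likeness is a description of these lenses.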

How the data were processed

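Per the labels and methods, RNA of single lenses at postnatal day 6 was isolated with a column kit and hybridised to BeadChip arrays. The authors deposited intensity in unnormalized form and in normalized form, with a detection p-value for every probe and array in both tables. The normalized values had undergone rank-invariant scaling, per the file headers. Of 45281 probes, 18 had shifted cells in the unnormalized table and were left out. Genes were named through a RefSeq table (GRCm38.p6), with 8344 probes keeping the symbol of the files.

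Unnormalized intensity was corrected by limma 3.58.1 under R 4.3.3 (neqc, offset 16), followed by quantile normalization and log2. The 16262 probes whose detection p-value lay under 0.05 on 2 or more arrays were fitted with lmFit and eBayes, two-sided, and p-values were adjusted over them by Benjamini-Hochberg. A probe was called at an adjusted p under 0.05, a log2 fold change beyond 0.58 and a mean log2 signal over 4.6, thresholds taken from the methods of the study. The authors used a model for counts, which was not applied to intensities, and averaged the probes of a gene, which is an alternative here. A probe not detected on any array of a group has only a bound, written as at least so many fold, in which each array of the dim group takes the probe's own value or the lowest signal of a detected probe, whichever is higher. Script steps other than the fit used Python version 3.11.15, and the fit was tested on simulated data.

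Named genes were drawn from all member probes, Celf1, from each list up to 3 called genes of largest change and the gene of the brightest probe, and the 5 probes nearest to Actb and to Actn2. Not every gene under this rule is named in the text. Xist, Ddx3y in the check of the arrays, and muscle, pericyte, blood and lens markers named for their detection were chosen after their values were seen. The same holds for list genes named as not tested. Members and lists were chosen with earlier results of these data known. The p-values weigh the difference between the groups against a spread between lenses that eBayes moderates with that of all tested probes. The number of arrays limits the precision. Alternatives covered the table, background, scaling, detection filter, probe averaging, variance model, the replicate letter as a block and leaving out each lens.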

Additional observations from a re-analysis of the deposited data

How the results depend on the processing

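With 2 lenses in each group, many calls depended on single lenses and on scaling. The counts that follow are, in order, of all probes called (1831 in the fit described), of the 12 probes of members not picked (0), of probes in the 9 actin-related lists (28) and of Celf1 probes (4). The deposited normalized table gave 7, 0, 1 and 0. Setting each array to the same median gave 7858, 2, 115 and 1, and no normalization between arrays gave 8348, 5, 120 and 1, with 97.3% and 97.7% of calls higher in cKO lenses against 52.0% in the fit described. Equal medians over probes detected in all 4 samples, an alternative chosen after seeing the data, gave 3937 and 54 (27.8% higher) with 0 member calls. The other alternative chosen after seeing the data, the deposited normalized table plus 16, gave 1628 calls. Normexp with offset 50 gave 1199 and 18, no detection filter gave 126, 0, 1 and 0, and the average of a gene's probes gave 18 genes in the lists and 1 gene for Celf1, where genes replace probes. Leaving out each lens in turn gave 12 to 1115 calls, 0 to 1 member probe, 0 to 19 list probes and 0 to 4 Celf1 probes, with the lowest counts without Control B (12, 0, 0 and 0) and without cKO B 373 calls, 8 list probes and 2 Celf1 probes. Without cKO A there were 1020 and 16, and without Control A 1115 with 1 Celf1 probe.

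The letters A and B did not pair the lenses by the check made (correlation of the A minus B differences -0.0098), and the replicate block gave 2814 calls, 0 member probes, 41 list probes and 4 Celf1 probes.

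Actb and Actn2 were lower in cKO lenses under all alternatives run, and as both were picked for this on the same arrays, nothing is read from the shared direction. With no normalization between arrays, Actb was at -0.15 ± 0.23 on ILMN_2698799, -0.35 ± 0.22 on ILMN_2617433 and -0.35 ± 0.24 on ILMN_1377923. Of the probes not picked, Acta2 probe ILMN_2693895 turned to -0.040 with the deposited normalized table and to -0.038 with 16 added. The values with equal medians and with no normalization were 0.50 and 0.53 for Acta2 ILMN_2710354, 0.20 and 0.24 for Actn3 ILMN_2747543, 0.38 and 0.42 for Actn4 ILMN_1242390, 0.41 and 0.45 for Actn4 ILMN_2672767, 0.77 and 0.81 for Actn4 ILMN_2673599, and 0.45 and 0.49 for Tmod1 ILMN_2977404, all of the opposite sign. With equal medians over detected probes the turned values were -0.49 for Actn3 ILMN_3008110, 0.050 for Actn4 ILMN_2673599 and -0.25 for Tmod3 ILMN_2479359. Leaving out each lens in turn gave -0.41 to 0.86 for Acta2 ILMN_2710353, -1.04 to 0.54 for ILMN_2710354, -0.69 to 0.76 for ILMN_2693895 and -0.77 to 1.002 for ILMN_2923445, with the lowest values without cKO B and the highest without cKO A. The range was -0.39 (without Control B) to 0.52 (without Control A) for Actn3 ILMN_3008110, -0.26 to 0.055 for Actn4 ILMN_1242390 and -0.18 to 0.097 for Actn4 ILMN_2673599. Without a change of sign it was -0.62 to -0.15 for Tmod1, -0.60 to -0.19 for Actn4 ILMN_2672767 and 0.16 to 0.49 for Actn1. It was also -0.52 to -0.23 for Actn3 ILMN_2747543, 0.065 to 0.42 for Tmod3 and, of the picked genes, -1.37 to -0.59 for Actb ILMN_1377923. Beyond these scalings, the cause of the changes was not tested.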

Other observations

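Actb is often used as a reference transcript, so a list of 18 common reference genes was counted beside it. Of 24 tested probes of 14 genes, 4 were called higher in cKO lenses and 0 lower, where 5.86% of all tested probes were called higher and 5.4% lower, with a median log2 fold change of 0.22 beside 0.015 over all tested probes. Pgk1, a glycolytic enzyme, was higher on 1 of its 2 probes (1.40 ± 0.17, limma adjusted p = 0.0052), Hprt on 1 of 2 (1.03 ± 0.15, adjusted p = 0.010) and Tfrc, the transferrin receptor, on 2 of 2 (0.86 and 1.06). Eef1a1, the brightest of the list, did not pass (0.21 ± 0.15, adjusted p = 0.381). With no normalization between arrays the median of all tested probes itself was 0.59.

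Acta2 is one of several genes followed in the mesenchymal change of lens epithelial cells, and the others of such a list were counted. Of 12 tested probes of 10 genes, 3 were called higher and 0 lower, beside the same 5.86% and 5.4% of all tested probes, with a median of 0.02. Tgfbi, an extracellular matrix protein induced by TGF-beta, read 6.79 in cKO A and 7.78 in cKO B on ILMN_2834379. It was not well above background in either Control lens, so that the difference on this probe was at least 5.83-fold higher in cKO (limma adjusted p = 0.0042). Its other tested probe, ILMN_2727663, was called higher with a smaller log2 fold change of 1.02. Fn1, fibronectin, was at least 1.28-fold higher (adjusted p = 0.024). Vim, the intermediate filament protein vimentin and the brightest of the list, did not pass (-0.09 ± 0.17, adjusted p = 0.764), and Col1a1, Col1a2, Col3a1 and Tagln were not tested because they were detected on fewer than 2 arrays.

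The counts of cell type markers stand beside 5.4% of all tested probes called lower and 5.86% called higher. Of lens fiber markers, 5 of 16 probes were called lower and 0 higher: all 3 probes of Dnase2b, the nuclease of fiber cell denucleation (-2.33 ± 0.27 on ILMN_2603377, limma adjusted p = 0.0052), Birc7 (-1.44 ± 0.17, adjusted p = 0.0050) and Bfsp2, a beaded filament protein (-0.74 ± 0.16, adjusted p = 0.030). Of lens epithelium markers 2 of 10 probes were called lower, Foxe3 (-0.82 ± 0.15, adjusted p = 0.020) and Sulf1 (-0.62 ± 0.16, adjusted p = 0.047). Endothelial markers gave 1 of 8 probes higher, Emcn (1.15 ± 0.20, adjusted p = 0.018), blood markers 1 of 11 lower, Slc4a1 (-1.05 ± 0.16, adjusted p = 0.012), macrophage markers 2 of 6 higher, C1qb and Cd68, and retina and pigment cell markers 0 of 3. The median log2 fold changes were -0.25 (fiber), -0.36 (epithelium), 0.56 (endothelial), 0.02 (blood), 0.35 (macrophage) and -0.40 (retina and pigment), beside 0.015 over all tested probes. The part of these cells in the values of Actb, Actn2 and Acta2 was not tested.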
